A study of Mus musculus with 2 samples.

Results

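The meiotic recombination genes described here were 9 of the 32285 genes counted in 2 single-cell RNA libraries of mouse testis. They were chosen by symbol: Prdm9, Spo11, Dmc1, Meiob, Rad51ap2, Msh4, Msh5, Mlh3 and Tex15. All 9 were present in both libraries and all were followed across the stages of male germ cell development. The rule of choice, by symbol, used no measured value, but it was set with earlier results of these data known.

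Whole testis was dissociated to mixed cells, and 1 library was made from Prm2 -/- testis (the knockout) and 1 from Prm2 +/- testis (the heterozygote). Prm2 encodes protamine 2, which packs sperm DNA in late spermatids. The labels give no age, strain, number of animals or description of the mutant allele. The heterozygote also carries 1 mutant allele, and no Prm2 +/+ library was analysed here.

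Meiotic recombination begins when hotspots are marked on chromatin and cut, so that each cut leaves a DNA double-strand break. The broken ends are resected to single strands, which are coated by recombinases and search the homologous chromosome for a match. A minority of the joined sites are stabilised and become crossovers, which hold homologs together until the first meiotic division. In mouse testis these steps run from leptotene through zygotene and pachytene, before any protamine is made.

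Each genotype is 1 library, so differences between genotypes carry no test and no replicate check. Intervals are at 95% and reflect counting error alone: exact Poisson for levels, exact conditional binomial for ratios and exact Clopper-Pearson for shares. Levels are UMIs (unique molecular identifiers, each 1 counted RNA molecule) of a gene per 1e6 UMIs of the cell class, written CPM. They were read from the transcript's 3′ end and are compared within a gene, not between genes. The knockout library held 123588822 UMIs in 22885 barcodes and the heterozygous library 71364845 UMIs in 15210 barcodes, although the protocol gives 15000 cells loaded for each. After filters and removal of doublets, 18963 knockout and 14576 heterozygous cells were kept. The libraries shared 88 barcodes. Scrublet marked 15.7% of knockout and 3.07% of heterozygous cells as doublets, so doublets may remain in the heterozygous library. Prm2 itself had 296 UMIs (12.5 to 15.7 CPM) in elongating-spermatid-like cells of the knockout and 600609 UMIs (37117 to 37305 CPM) in those of the heterozygote, which matches the labels.

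Spermatogonia and early spermatocytes were split into 10 clusters, of which 9 were ordered E1 to E9 by their marker scores and named without use of the 9 genes. The other held 92 knockout and 25 heterozygous cells and was left out. It scored highest for the elongating spermatid set (1.084), closely followed by the differentiating spermatogonia set (1.065). Its log2 ratio, knockout over heterozygote, was −1.79 (−3.06 to −0.61) for Meiob, 1.24 (0.22 to 2.40) for Dmc1 and 0.86 (0.39 to 1.34) for Tex15. Intervals of the other members there included 0. E1 was undifferentiated-spermatogonia-like (41 knockout and 15 heterozygous cells), and E2 (149 knockout and 61 heterozygous) and E3 (83 knockout and 62 heterozygous) were differentiating-spermatogonia-like. E4 (367 knockout and 46 heterozygous) scored highest for the same set but had Rhox13, a marker of the preleptotene set, among its 10 leading genes and stays unnamed. E5 (102 knockout and 67 heterozygous cells) was preleptotene-to-leptotene-like. E6 (285 knockout and 27 heterozygous), E8 (145 knockout and 55 heterozygous) and E9 (150 knockout and 53 heterozygous) were zygotene-to-early-pachytene-like. E7 (80 knockout and 121 heterozygous) scored highest for the zygotene set but had Scml2 and Ccnb3, markers of the preleptotene set, among its leading genes and stays unnamed. Clusters E5 to E9 together are called early meiotic cells, 762 in the knockout and 323 in the heterozygote. Their makeup differed, since 285 of the 762 knockout cells but 27 of the 323 heterozygous cells were in E6, so pooled values are given with those of single clusters. Makeup differed in E1 to E4 pooled too, where E4 held 367 of 640 knockout cells but 46 of 184 heterozygous cells. Later classes were pachytene-like (2815 knockout and 1351 heterozygous cells), diplotene-like (1688 knockout and 1450 heterozygous), round-spermatid-like (6076 knockout and 3762 heterozygous) and elongating-spermatid-like (3873 knockout and 2334 heterozygous).

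RNA of other cell types was present in the early meiotic cells. The 8 elongating spermatid markers, all detected in both libraries, summed to 9902 CPM in knockout and 15772 CPM in heterozygous early meiotic cells. The 8 Sertoli markers, also all detected, summed to 512 CPM in the knockout and 393 CPM in the heterozygote in the same cells. The level of each gene in elongating-spermatid-like and Sertoli-like cells is therefore given beside its level in meiosis. The part of free RNA in a result was not tested beyond the values given.

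Promoter sequence was at hand for 6 of the 9 genes, from RefSeq on GRCm38.p6. The 250 bases before the start site are shown for 3 genes whose RNA was highest early in meiosis, written 5′ to 3′ on the gene's strand, because they differ in the letters tied to meiotic entry. The 4 motifs below were searched on both strands and matches are in capitals: TCCCGCC, the core bound by E2F6, CNCCTCAG, the motif of the STRA8 and MEIOSIN activators of meiotic genes, the E-box CACGTG and the CRE TGACGTCA.
Prdm9, chr17:15564355-15564604, minus strand: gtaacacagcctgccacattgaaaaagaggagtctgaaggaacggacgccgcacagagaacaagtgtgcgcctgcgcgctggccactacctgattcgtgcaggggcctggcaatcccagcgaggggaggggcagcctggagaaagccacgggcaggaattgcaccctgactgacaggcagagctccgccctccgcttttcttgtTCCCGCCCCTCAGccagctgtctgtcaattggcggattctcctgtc
Rad51ap2, chr12:11455805-11456054, plus strand: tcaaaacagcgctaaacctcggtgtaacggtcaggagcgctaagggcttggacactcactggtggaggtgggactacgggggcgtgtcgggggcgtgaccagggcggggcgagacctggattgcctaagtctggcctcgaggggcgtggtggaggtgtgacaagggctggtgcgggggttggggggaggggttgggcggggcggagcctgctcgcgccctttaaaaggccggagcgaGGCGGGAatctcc
Dmc1, chr15:79605110-79605359, minus strand: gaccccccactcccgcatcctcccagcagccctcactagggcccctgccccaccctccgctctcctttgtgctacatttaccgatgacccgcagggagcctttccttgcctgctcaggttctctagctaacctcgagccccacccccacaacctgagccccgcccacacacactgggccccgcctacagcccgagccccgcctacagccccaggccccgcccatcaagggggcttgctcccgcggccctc

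RefSeq gives Prdm9 2 start sites, and the upstream one is shown. Its window held 1 TCCCGCC and 1 CNCCTCAG, which share 2 bases. The window of the other Prdm9 start site, not printed, held 1 TCCCGCC but no CNCCTCAG. The Rad51ap2 window held 1 TCCCGCC and the Dmc1 window held none of the 4 motifs. The window of Msh5, not printed, also held 1 TCCCGCC and 1 CNCCTCAG, while those of Msh4 and Mlh3 held none of the 4. Among 32851 windows of the same length, 9.75% held TCCCGCC, 6.42% CNCCTCAG, 6.02% CACGTG and 1.55% TGACGTCA. These matches describe letters and show no binding.

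Prdm9 (ENSMUSG00000051977, chr17:15543079-15564354, minus strand, mm10) encodes the methyltransferase that marks recombination hotspots on histone H3. Its RNA was high in E5 and E6 and low in the clusters before and after them. Its level in the knockout was 12.3 CPM in E2, 33.6 in E3, 26.5 in E4, 271 in E5, 122 in E6, 51.3 in E7, 18.3 in E8 and 4.91 in E9. In the heterozygote it was 26.2 CPM in E2, 24.9 in E3, 30.8 in E4, 194 in E5, 186 in E6, 39.1 in E7 and 12.3 in E8, with 0 UMIs in E9. Both libraries had their highest level in E5, which in the knockout lay above every other stage beyond counting error (217 to 334 CPM) and in the heterozygote overlapped E6 (144 to 257 CPM in E5, 96.1 to 325 CPM in E6). From pachytene-like cells on, Prdm9 stood at the level of the elongating-spermatid-like background, 1.12 CPM in the knockout and 0.819 CPM in the heterozygote in pachytene, against 0.615 CPM in the knockout and 0.805 CPM in the heterozygote in elongating cells. E5 over elongating cells was 440-fold (244 to 860) in the knockout and 241-fold (129 to 484) in the heterozygote. In Sertoli-like cells Prdm9 was 3.76 CPM in the knockout and 2.38 CPM in the heterozygote.

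Between genotypes, Prdm9 in early meiotic cells was 85.8 CPM in the knockout and 69.1 CPM in the heterozygote, a log2 ratio of 0.31 (−0.09 to 0.72). The counting interval includes no difference. With cells of at least 1000 UMIs, which changes the clusters, the log2 ratio was 1.09, the highest of 14 other settings. In E5 the log2 ratio was 0.48 (−0.04 to 1.02) and in E6 −0.61 (−1.52 to 0.41).

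Spo11 (ENSMUSG00000005883, chr2:172977700-172993576, plus strand) encodes the topoisomerase-like protein that makes the breaks. Its RNA continued into pachytene and beyond. In the knockout its level was 63.0 CPM in E5, 64.6 in E6, 160 in E7, 88.6 in E8, 47.4 in E9, 104 in pachytene-like, 59.3 in diplotene-like and 28.0 in round-spermatid-like cells. In the heterozygote it was 7.93 CPM in E5, 46.5 in E6, 69.3 in E7, 55.4 in E8, 20.8 in E9, 60.1 in pachytene-like, 36.0 in diplotene-like and 19.1 in round-spermatid-like cells. E7 was the highest stage in both libraries, but its interval overlapped those of E8 and pachytene-like cells in the knockout and of 5 stages in the heterozygote.

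Spo11 had a higher CPM in the knockout in all 13 germ cell stages, but its heterozygous UMIs were few before E7. They numbered 0 in E1 and E3, where the knockout had 3 and 2 UMIs, so no ratio is given there. They numbered 2 in E2, E4 and E5 and 3 in E6. Intervals were clear of 0 in E5, from 20 knockout and 2 heterozygous UMIs, and in E7, pachytene-like, diplotene-like, round and elongating cells. The log2 ratio was 0.87 (0.37 to 1.40) in early meiotic cells, from 140 knockout and 43 heterozygous UMIs. It was 0.79 (0.67 to 0.90) in pachytene-like, 0.72 (0.48 to 0.96) in diplotene-like and 0.55 (0.37 to 0.74) in round-spermatid-like cells. Within pachytene-like clusters 10, 2 and 8 it was 0.66, 1.86 and 0.70. The same direction was found in cells outside recombination. Spo11 was at 11.3 CPM in knockout and 2.66 CPM in heterozygous elongating-spermatid-like cells, and 31.9 CPM in the knockout and 16.1 CPM in the heterozygote in Sertoli-like cells. After the elongating level of each library was subtracted, the log2 ratio was 0.72 in early meiotic and 0.69 in pachytene-like cells.

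Dmc1 (ENSMUSG00000022429, chr15:79561497-79605109, minus strand) encodes the meiosis-specific recombinase that carries out strand exchange between homologs. Its RNA was present before meiosis and was highest in E5. In the knockout it was 71.9 CPM in E2, 129 in E3, 102 in E4, 542 in E5, 378 in E6, 342 in E7, 101 in E8 and 88.3 in E9. In the heterozygote it was 58.9 CPM in E2, 77.4 in E3, 53.9 in E4, 567 in E5, 357 in E6, 229 in E7, 105 in E8 and 83.2 in E9. In pachytene-like cells it was down to 5.09 CPM in the knockout and 5.36 CPM in the heterozygote. E5 was above all other stages beyond counting error in the knockout, and overlapped only E6 in the heterozygote.

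The pooled early meiotic level of Dmc1 did not differ between genotypes beyond counting error. In early meiotic cells it was 264 CPM in the knockout and 257 CPM in the heterozygote, a log2 ratio of 0.04 (−0.17 to 0.25), from 518 knockout and 283 heterozygous UMIs. In E5 the log2 ratio was −0.07 (−0.39 to 0.26), in E7 0.58 (0.07 to 1.09) and in E1 to E4 pooled 0.52 (0.08 to 0.97). E4 made up a larger share of the E1 to E4 pool in the knockout, as given above. The counting interval of the pooled early meiotic value lies within a 2-fold difference in either direction. Across 14 other settings the pooled value ran from −0.12 to 0.84, the highest with cells of at least 1000 UMIs, so the choice of cells counts for more than counting error.

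**Figure D1:**
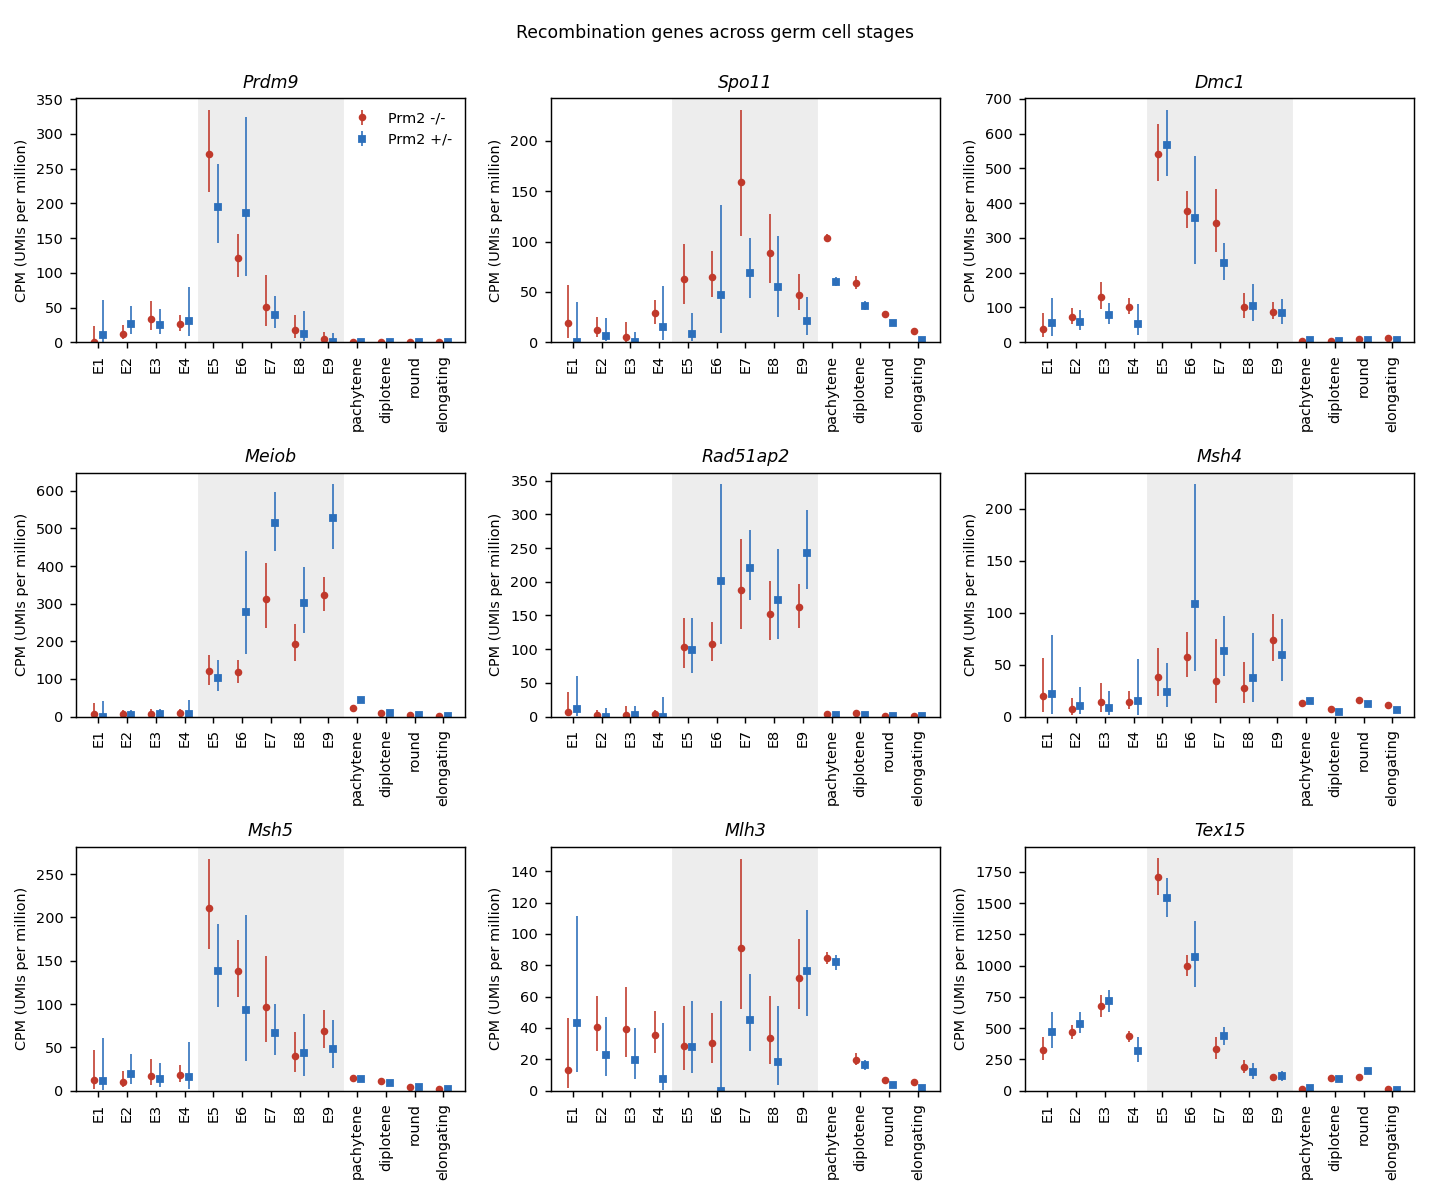
Levels of the 9 recombination genes (y axis, CPM, its own scale per gene) over 13 germ cell stages (x axis), with knockout Prm2 -/- as red circles, heterozygous Prm2 +/- as blue squares and exact 95% Poisson intervals, which cover counting error only. Grey marks early meiotic clusters E5 to E9; Prdm9, Dmc1, Msh5 and Tex15 are highest in E5, while Meiob and Rad51ap2 are highest in E7 or E9 and Spo11 and Mlh3 stay high in pachytene-like cells.

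Meiob (ENSMUSG00000024155, chr17:24804289-24839788, plus strand) encodes a single-strand DNA binding protein that works with RPA and SPATA22 on resected ends. It was nearly silent before meiosis, at 5.61 to 10.4 CPM in knockout clusters E1 to E4 and 0 to 7.71 CPM in heterozygous ones. Its level in the knockout was 120 CPM in E5, 118 in E6, 313 in E7, 192 in E8 and 324 in E9. In the heterozygote it was 103 CPM in E5, 279 in E6, 515 in E7, 301 in E8 and 527 in E9. Both libraries thus had their highest level in E9, overlapping E7, later than Prdm9 and Dmc1.

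Meiob was lower in the knockout from E6 to pachytene. In early meiotic cells it was 212 CPM in the knockout and 378 CPM in the heterozygote, a log2 ratio of −0.83 (−1.03 to −0.63), from 416 UMIs in each. The log2 ratio was −1.24 (−2.02 to −0.40) in E6, −0.72 (−1.18 to −0.27) in E7, −0.65 (−1.21 to −0.08) in E8 and −0.70 (−1.01 to −0.39) in E9, so it held within each of these clusters. In E5, at the onset, it was 0.22 (−0.54 to 0.99). In pachytene-like cells it was 23.8 CPM in the knockout and 42.7 CPM in the heterozygote, a log2 ratio of −0.84 (−1.02 to −0.67). That class was made of 3 clusters, and the difference lay in cluster 10, with 28.1 CPM in the knockout and 60.8 CPM in the heterozygote and a log2 ratio of −1.11 (−1.32 to −0.91), while cluster 2 gave −0.31 (−0.75 to 0.13) and cluster 8 gave 0.48 (−0.17 to 1.16). When stages were set from marker shares in place of clusters, the pachytene value was 0.05. In diplotene-like cells the log2 ratio was 0.22 (−0.34 to 0.77). Round-spermatid-like cells held 3.26 CPM in the knockout and 5.33 CPM in the heterozygote, a log2 ratio of −0.71 (−1.12 to −0.30). Meiob was at 2.55 CPM in knockout and 1.80 CPM in heterozygous elongating-spermatid-like cells. Sertoli-like cells held 11.3 CPM in the knockout and 9.52 CPM in the heterozygote, above its level in each cluster before E5.

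Rad51ap2 (ENSMUSG00000086022, chr12:11456079-11462928, plus strand) encodes a germ cell protein of the strand exchange step. Its profile was the closest to that of Meiob among the members. In the knockout it was 104 CPM in E5, 108 in E6, 188 in E7, 153 in E8, 162 in E9 and 3.26 in pachytene-like cells. In the heterozygote it was 99.1 CPM in E5, 202 in E6, 220 in E7, 172 in E8, 243 in E9 and 2.23 in pachytene-like cells. Before E5 it had at most 3 UMIs in any cluster of either library. In elongating-spermatid-like cells it was 0.615 CPM in the knockout and 0.558 CPM in the heterozygote. In Sertoli-like cells it was 2.82 CPM in the knockout and 0.595 CPM in the heterozygote.

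The log2 ratio of Rad51ap2 in early meiotic cells was −0.45 (−0.72 to −0.18), at 139 CPM in the knockout and 190 CPM in the heterozygote. Within clusters it was −0.90 (−1.78 to 0.10) in E6, −0.23 (−0.86 to 0.39) in E7, −0.17 (−0.87 to 0.55) in E8 and −0.58 (−1.04 to −0.12) in E9. The sign of the pooled value turned in 4 of 14 other settings, so no direction is drawn from it.

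**Figure D2:**
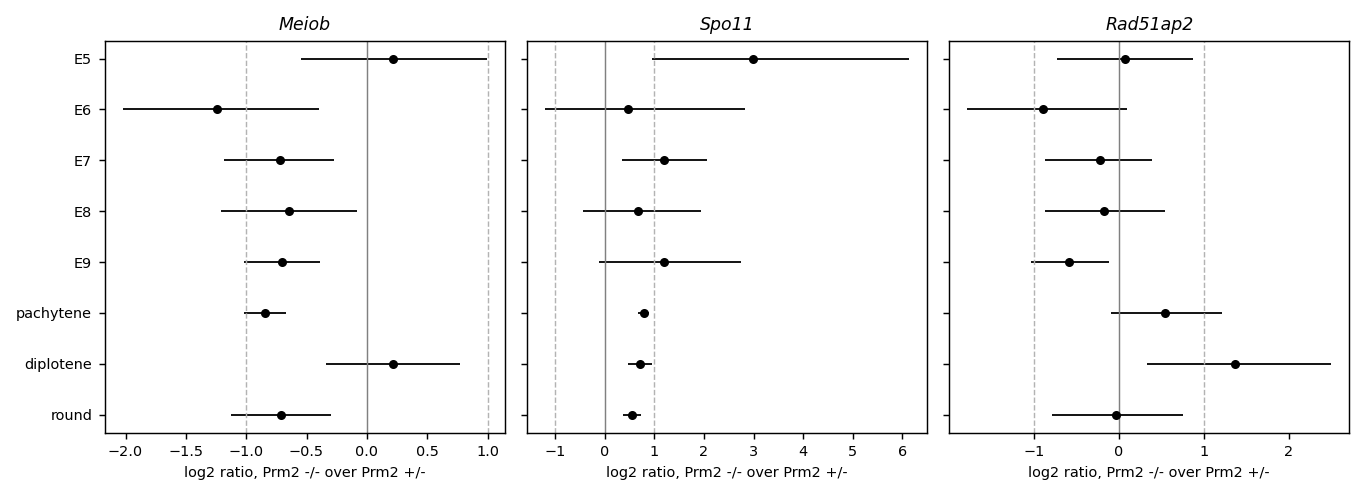
The log2 ratio of CPM, knockout Prm2 -/- over heterozygous Prm2 +/- (x axis, a separate scale per gene), for Meiob, Spo11 and Rad51ap2 in single clusters and classes (y axis), with exact 95% intervals for counting error only. Dashed lines mark a 2-fold difference. Meiob lies below 0 from E6 to pachytene-like cells and again in round-spermatid-like cells. Every Spo11 point lies above 0, and the Rad51ap2 intervals include 0 except in E9 and diplotene-like cells.

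Msh4 (ENSMUSG00000005493, chr3:153857149-153906138, minus strand) and Msh5 (ENSMUSG00000007035, chr17:35028605-35046745, minus strand) encode partners of 1 complex that stabilises joined DNA for crossovers. The 2 RNAs did not follow the same course. Msh5 was highest in E5, at 211 CPM in the knockout and 139 CPM in the heterozygote, and lower in E9, at 68.7 CPM in the knockout and 48.5 CPM in the heterozygote. Msh4 in E5 was 37.8 CPM in the knockout and 23.8 CPM in the heterozygote, and in E9 73.6 CPM in the knockout and 58.9 CPM in the heterozygote. Its highest stage was E9 in the knockout and E6 in the heterozygote, where it rested on 7 UMIs. The knockout interval overlapped those of E1, E5, E6 and E7, and the heterozygous one those of 6 stages. In pachytene-like cells Msh5 was 14.9 CPM in the knockout and 14.0 CPM in the heterozygote, and Msh4 13.3 CPM in the knockout and 15.3 CPM in the heterozygote. Msh4 in elongating-spermatid-like cells was 11.1 CPM in the knockout and 6.38 CPM in the heterozygote. Msh5 there was 2.22 CPM in the knockout and 2.23 CPM in the heterozygote. Sertoli-like cells held 6.58 CPM of Msh4 in the knockout and 7.14 CPM in the heterozygote. They held 7.04 CPM of Msh5 in the knockout and 3.57 CPM in the heterozygote.

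Between genotypes, Msh5 in early meiotic cells was 108 CPM in the knockout and 76.4 CPM in the heterozygote, a log2 ratio of 0.50 (0.13 to 0.89). Its value in E5 was 0.60 (−0.01 to 1.24). Msh4 was 52.1 CPM in the knockout and 51.8 CPM in the heterozygote, a log2 ratio of 0.01 (−0.47 to 0.50). In pachytene-like cells both intervals included 0, at 0.09 (−0.17 to 0.36) for Msh5 and −0.20 (−0.47 to 0.06) for Msh4. The Msh4 value was −1.999 with the level of elongating-spermatid-like cells subtracted.

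Mlh3 (ENSMUSG00000021245, chr12:85234520-85270599, minus strand) encodes an endonuclease subunit that resolves joined DNA into crossovers. Its RNA stayed high in pachytene. In pachytene-like cells it was 84.5 CPM (80.8 to 88.4) in the knockout and 81.9 CPM (77.1 to 86.8) in the heterozygote, from 1893 knockout and 1100 heterozygous UMIs. In early meiotic cells it was 49.0 CPM in the knockout and 42.7 CPM in the heterozygote. In the knockout E7 had a higher value of 91.2 CPM, whose interval of 52.1 to 148 CPM holds the pachytene level. It was down to 19.7 CPM in knockout and 16.3 CPM in heterozygous diplotene-like cells.

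The pachytene log2 ratio of Mlh3 was 0.05 (−0.06 to 0.15), the narrowest interval of any member there. This pooled value joins clusters of opposite sign. The ratio was −0.21 (−0.34 to −0.07) in cluster 10, 0.56 (0.25 to 0.88) in cluster 2 and 0.35 (0.14 to 0.57) in cluster 8. In round-spermatid-like cells Mlh3 was 7.04 CPM in the knockout and 3.39 CPM in the heterozygote, a log2 ratio of 1.06 (0.64 to 1.49). In elongating-spermatid-like cells it was 5.35 CPM in the knockout and 1.55 CPM in the heterozygote and in Sertoli-like cells 21.1 CPM in the knockout and 9.52 CPM in the heterozygote.

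Tex15 (ENSMUSG00000009628, chr8:33516738-33585582, plus strand) encodes a large germ cell protein needed for loading of recombinases and for silencing of transposons in the fetal germ line. It was at 316 CPM or more in every cluster before meiosis in both libraries. In the knockout it was 329 CPM in E1, 468 in E2, 676 in E3, 435 in E4, 1707 in E5, 997 in E6, 330 in E7, 189 in E8 and 106 in E9. In the heterozygote it was 467 CPM in E1, 537 in E2, 714 in E3, 316 in E4, 1538 in E5, 1070 in E6, 434 in E7, 148 in E8 and 114 in E9. E5 lay above every other stage beyond counting error in both libraries. In pachytene-like cells Tex15 was down to 12.4 CPM in the knockout and 19.0 CPM in the heterozygote.

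Tex15 was high again after pachytene. It was 103 CPM in knockout and 92.1 CPM in heterozygous diplotene-like cells, and 110 CPM in the knockout and 157 CPM in the heterozygote in round-spermatid-like cells. Among round-spermatid-like clusters it was highest in cluster 11, at 327 CPM in the knockout and 358 CPM in the heterozygote, and next in cluster 3, at 206 CPM in the knockout and 208 CPM in the heterozygote. It was 113 CPM in the knockout and 141 CPM in the heterozygote in cluster 0, 52.3 CPM in the knockout and 57.2 CPM in the heterozygote in cluster 13 and 27.2 CPM in the knockout and 35.8 CPM in the heterozygote in cluster 14. Cluster 11 was led by Pcdh9, Agbl1 and Fat3 and had a median of 1698 UMIs a cell in the knockout and 1776 in the heterozygote. Elongating-spermatid-like cells held 11.7 CPM in the knockout and 8.80 CPM in the heterozygote and Sertoli-like cells 33.8 CPM in the knockout and 32.7 CPM in the heterozygote, both well under clusters 3 and 11.

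Tex15 in early meiotic cells was 639 CPM in the knockout and 598 CPM in the heterozygote, a log2 ratio of 0.10 (−0.04 to 0.23), and 0.83 with cells of at least 1000 UMIs. Its round-spermatid-like log2 ratio of −0.52 (−0.59 to −0.45) came with a different mix of clusters, and within them it was −0.32 (−0.45 to −0.20) in cluster 0, −0.02 (−0.13 to 0.10) in cluster 3, −0.13 (−0.32 to 0.06) in cluster 11, −0.13 (−0.60 to 0.35) in cluster 13 and −0.40 (−0.72 to −0.06) in cluster 14. The pachytene value of −0.61 (−0.86 to −0.36) lay in cluster 2, with 35.6 CPM in the knockout and 94.6 CPM in the heterozygote and a log2 ratio of −1.41 (−1.81 to −1.01), against −0.01 (−0.42 to 0.39) in cluster 10 and −0.16 (−0.81 to 0.50) in cluster 8. It was 0.06 when each library was clustered on its own, so it rests on the clusters drawn.

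Dmc1 and Msh4 were also higher in some spermatid clusters than in diplotene-like cells. In diplotene-like cells Dmc1 was 4.70 CPM in the knockout and 2.61 CPM in the heterozygote. Msh4 there was 7.41 CPM in the knockout and 4.65 CPM in the heterozygote. Dmc1 in round-spermatid-like cluster 13 was 77.7 CPM (66.1 to 90.7) in the knockout and 57.2 CPM (43.5 to 73.8) in the heterozygote, from 159 knockout and 59 heterozygous UMIs. In round-spermatid-like cluster 0 it was 1.55 CPM in the knockout and 2.18 CPM in the heterozygote. In elongating-spermatid-like cluster 6 it was 23.0 CPM in the knockout and 21.5 CPM in the heterozygote. Cluster 13 was a shallow cluster, with a median of 1191 UMIs a cell in the knockout and 1262 in the heterozygote. Msh4 stood at 23.8, 26.4 and 22.2 CPM in clusters 11, 13 and 14 of the knockout and at 21.1, 20.4 and 28.2 CPM in those of the heterozygote. In cluster 3 it was 3.54 CPM in the knockout and 4.07 CPM in the heterozygote.

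**Figure D3:**
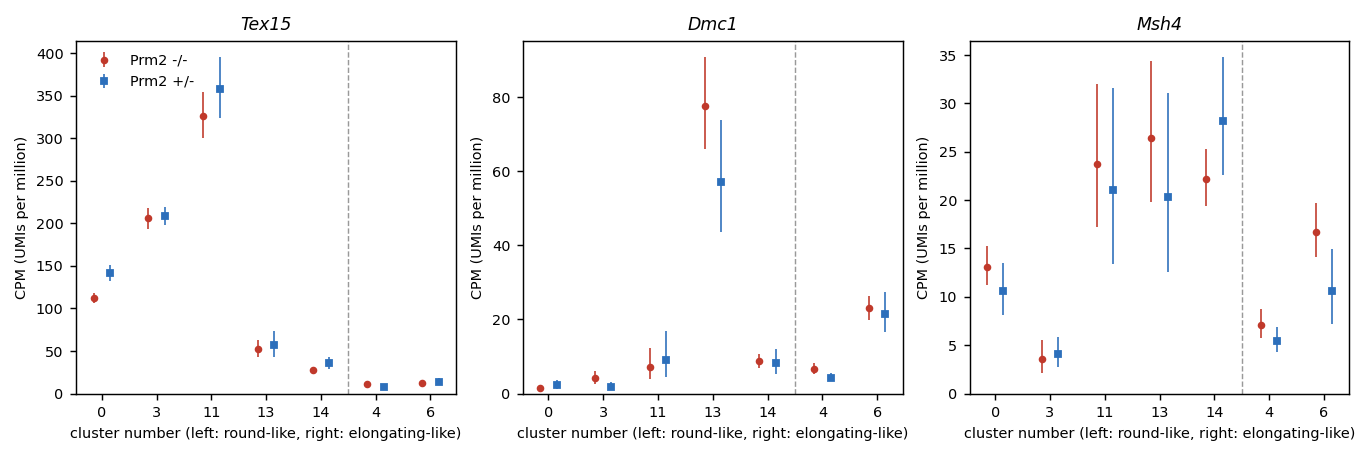
Levels of Tex15, Dmc1 and Msh4 (y axis, CPM, its own scale per gene) in 5 round-spermatid-like and 2 elongating-spermatid-like clusters (x axis, cluster numbers, which carry no order), with knockout Prm2 -/- as red circles, heterozygous Prm2 +/- as blue squares and exact 95% Poisson intervals. Tex15 is highest in cluster 11, Dmc1 in cluster 13 and Msh4 in clusters 11, 13 and 14, in both libraries; cluster 5 is left out because it held 26 knockout and 53 heterozygous cells.

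No member that passed the size rule was 2-fold higher or lower in the knockout in early meiotic or pachytene-like cells. The size rule asked for 50 CPM in either library and 100 UMIs summed over the pair, and 8 of the 9 members passed it in early meiotic cells. None of the 8 was 2-fold higher or lower in the knockout, while of the 5026 genes that passed, 1.99% were 2-fold higher and 0.657% were 2-fold lower. Of the 8, 6 had a ratio above 0, against 52.1% of all genes. Their median log2 ratio was 0.07 and that of all genes 0.02. Over all 9 members the median was 0.10, and it was 0.37 to 0.47 in 5 of 14 other settings (cells of at least 1000 UMIs, at most 10% mitochondrial UMIs, all cells kept, resolution 2 and stages from marker shares), in which the median of all genes was at most 0.06. In E6, E8 and E9 together 7 members passed, 4 with a ratio above 0 and 3 below, with a median of 0.65 against 0.05 for all genes. That pool held 285 E6 cells of 580 in the knockout and 27 of 135 in the heterozygote. At a smaller size, Spo11 and Msh5 were at a log2 ratio of 0.5 or more, against 12.1% of all genes, and Meiob alone at −0.5 or less, against 7.82%. In pachytene-like cells Spo11 and Mlh3 passed, and neither reached 2-fold, against 0.664% of 4220 genes higher and 1.07% lower. Both had a ratio above 0, against 50.5% of all genes. Spo11 was at 0.5 or more there, against 8.39%, and neither was at −0.5 or less, against 7.44%. Meiob and Tex15, with −0.84 and −0.61 there, were under 50 CPM in both libraries.

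**Figure D4:**
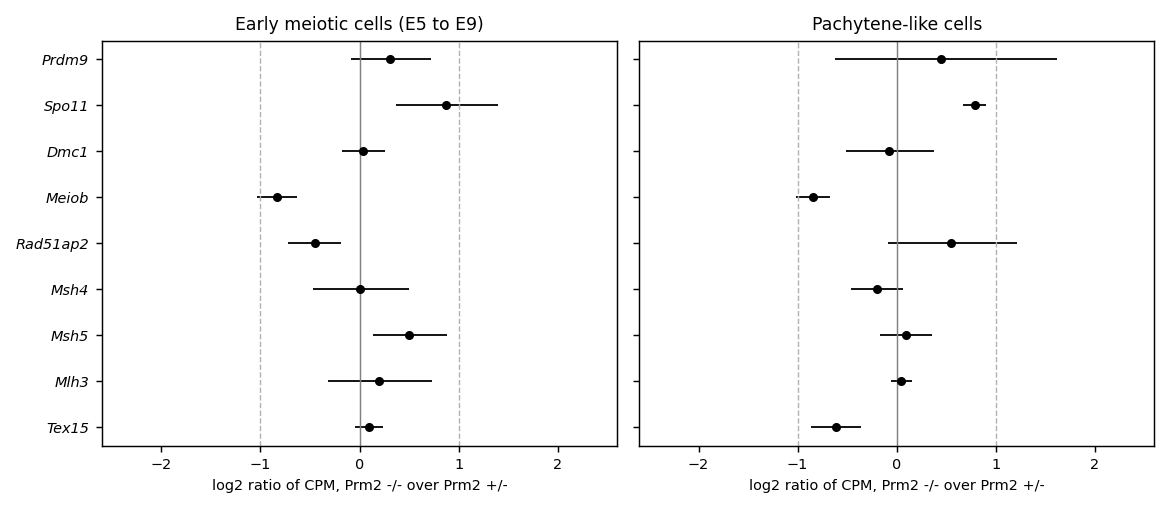
The log2 ratio of CPM, knockout Prm2 -/- over heterozygous Prm2 +/- (x axis), for the 9 genes (y axis) in pooled early meiotic cells on the left and pachytene-like cells on the right, with exact 95% intervals for counting error only. Dashed lines mark a 2-fold difference, which no member's value reaches; Spo11 lies above 0 and Meiob below 0 in both panels.

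UMIs of several members were also counted within single cells. Whether the members met in a cell more often than their separate levels would give was not tested. Each cell was thinned to 1608 UMIs and shallower cells were left out. In E5, 47.5% of 101 knockout cells (37.5 to 57.7%) and 44.8% of 67 heterozygous cells (32.6 to 57.4%) had a UMI of 3 or more of the 9 genes. The share was 37.7% in the knockout and 41.7% in the heterozygote in E6, 31.3% in the knockout and 34.2% in the heterozygote in E7, 7.27% in the knockout and 7.84% in the heterozygote in E8 and 11.5% in the knockout and 9.43% in the heterozygote in E9. It was 0.658% in knockout and 0.277% in heterozygous pachytene-like cells. No elongating-spermatid-like cell had 3 members (0 of 3846 in the knockout and 0 of 2312 in the heterozygote), which by the exact upper bound allows up to 0.0959% in the knockout and 0.159% in the heterozygote. No Sertoli-like cell did either (0 of 426 in the knockout and 0 of 192 in the heterozygote, allowing up to 0.862% in the knockout and 1.90% in the heterozygote).

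Of single members in thinned E5 cells, Tex15 was seen in 93.1% of knockout and 95.5% of heterozygous cells and Dmc1 in 56.4% of knockout and 58.2% of heterozygous cells. Prdm9 was seen in 31.7% of knockout and 25.4% of heterozygous E5 cells. In elongating-spermatid-like cells the shares were 2.11% in the knockout and 1.30% in the heterozygote for Tex15, 1.69% in the knockout and 1.25% in the heterozygote for Dmc1 and 0.156% in the knockout and 0.0433% in the heterozygote for Prdm9. Before thinning, the median depth of E5 cells was 2716 UMIs in the knockout and 3513 in the heterozygote, and of elongating cells 4446 UMIs in the knockout and 5990 in the heterozygote.

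**Figure D5:**
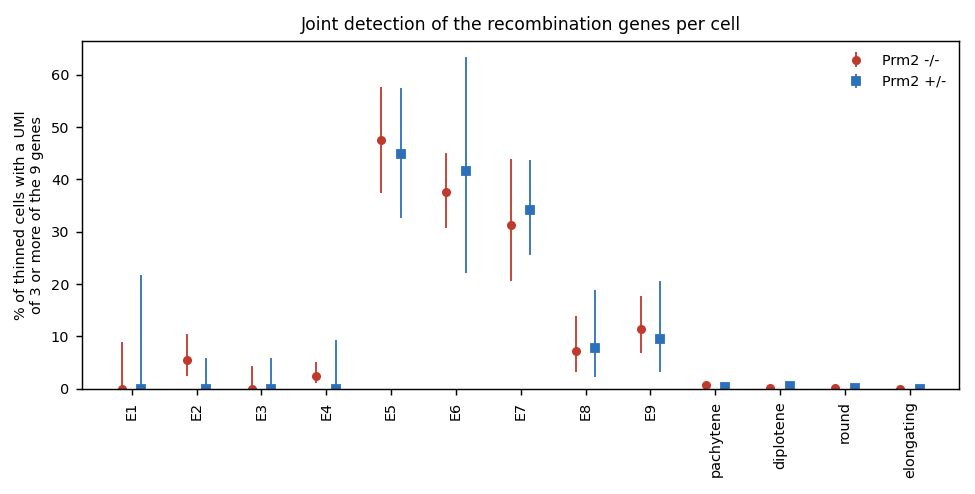
Share of thinned cells with a UMI of 3 or more of the 9 recombination genes (y axis, percent) in each germ cell stage (x axis), with knockout Prm2 -/- as red circles, heterozygous Prm2 +/- as blue squares and exact 95% Clopper-Pearson intervals. The share is highest in E5, at 47.5% in the knockout and 44.8% in the heterozygote, and under 1% from pachytene-like cells on.

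Across 26 points (13 stages in each of 2 libraries), the members' profiles of log2(CPM + 10) fell in groups, given here as a description of points that share libraries and depth. Meiob and Rad51ap2 were the closest pair, with a Pearson r of 0.96. Prdm9 and Dmc1 had an r of 0.89, Dmc1 and Msh5 0.88, and Msh4 and Rad51ap2 0.89. Mlh3 had an r of 0.405 with Meiob and under that with every other member, and Spo11 and Tex15 had −0.12. Of all other named genes, the most like the mean of the 9 were Iqcb1 (r of 0.96), Hfm1, Dnajc3, H2-K1, Srgap2, Stk17b, Senp8, Inca1, Tmed3 and Zdhhc6 (0.93). Hfm1 encodes a helicase of crossover formation. The nearest to single members were Pdlim5 and Rel for Prdm9, Zfp541 and Rdh14 for Spo11, Sdk1 and Acer3 for Dmc1, Vamp9 and Ccdc152 for Meiob, H2-D1 and Ccdc152 for Rad51ap2, Lactb and H2-D1 for Msh4, Senp8 and Inca1 for Msh5, Asb3 and Dazap1 for Mlh3, and Smc3 and Tipin for Tex15.

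The other genes of the pathway were taken from a list of 56, all found in both libraries. Of these, 39 in the knockout and 40 in the heterozygote had their highest level in E5 to E9, that is 69.6% in the knockout and 71.4% in the heterozygote, against 31.4% in the knockout and 33.1% in the heterozygote of 8072 genes that reached 50 CPM in some stage of both libraries. The highest stage was the same in both libraries for 32 of the 56. In early meiotic cells 36 passed the size rule, 21 with a ratio above 0 and 15 below, against 52.1% of all genes above 0. None was at 2-fold, against 1.99% of all genes higher and 0.657% lower. Their median log2 ratio was 0.04 and that of all genes 0.02.

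Of break formation genes, 5 of 6 were highest in E5 to E9 in each library, as were 5 of 6 break signalling and 5 of 7 hotspot and axis genes. Of strand exchange genes it was 14 of 22 in each library, and of crossover genes 10 of 15 in the knockout and 11 of 15 in the heterozygote. Mei1, needed for break formation, was 268 CPM in E5 of the knockout and 234 CPM in E5 of the heterozygote, and 2.59 CPM in the knockout and 5.28 CPM in the heterozygote in pachytene-like cells. Ankrd31, which brings the break machinery to the paired part of X and Y, was 498 CPM in the knockout and 507 CPM in the heterozygote in E5 and still 153 CPM in the knockout and 196 CPM in the heterozygote in pachytene-like cells. Of hotspot and axis genes, Hells, the chromatin remodeller that works with PRDM9, was 797 CPM in the knockout and 836 CPM in the heterozygote in E5, and Zcwpw1, a reader of PRDM9's marks, 573 CPM in the knockout and 563 CPM in the heterozygote.

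Of strand exchange genes, Brca2, the recombinase loader, was 450 CPM in E5 of the knockout and 519 CPM in E5 of the heterozygote, and Sfr1, a partner of SWI5, 394 CPM in the knockout and 468 CPM in the heterozygote. Of crossover genes, Hfm1 was 343 CPM in the knockout and 285 CPM in the heterozygote in E5. Tex11, which joins the crossover machinery and lies on the X, was 220 CPM in knockout and 277 CPM in heterozygous E5 but highest before it, in E3, at 359 CPM in the knockout and 423 CPM in the heterozygote. Of break signalling genes, the kinase gene Atm was 280 CPM in the knockout and 317 CPM in the heterozygote in E5 and Mdc1, which spreads the break signal along chromatin, 249 CPM in the knockout and 249.7 CPM in the heterozygote.

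A few pathway genes reached a 2-fold difference in a stage. Psmc3ip, a cofactor of DMC1, was 181 CPM in the knockout and 86.6 CPM in the heterozygote in E1 to E4 pooled, a log2 ratio of 1.07 (0.71 to 1.44). There, 1 of 28 pathway genes that passed was 2-fold higher and 0 lower, against 3.5% and 0.583% of all genes. E4 made up a larger share of that pool in the knockout, and the part of this makeup was not tested. H2afx, the histone phosphorylated at breaks, was 117 CPM in the knockout and 269.5 CPM in the heterozygote in E5, a log2 ratio of −1.21 (−1.83 to −0.61), where 1 of 19 was lower and 0 higher, against 2.41% and 1.01%. H2afx was also lower in E2 and E3 together, at 45.3 CPM in the knockout and 100.4 CPM in the heterozygote, a log2 ratio of −1.15 (−1.74 to −0.57), the only one of 24 that passed to reach 2-fold, against 0.415% lower and 1.3% higher. Later it was higher in the knockout, at 422 CPM in the knockout and 284 CPM in the heterozygote in E9, its highest stage, a log2 ratio of 0.57 (0.21 to 0.95). In pachytene-like cells its log2 ratio was 0.32 (0.23 to 0.42). Zcwpw1 was 165 CPM in the knockout and 352 CPM in the heterozygote in E7, a log2 ratio of −1.09 (−1.73 to −0.50), the only one of 9 that passed to reach 2-fold, against 2.58% lower and 0.595% higher. In E6, E8 and E9 together Gm960, the TOPOVIBL partner of SPO11, was 62.8 CPM in the knockout and 23.3 CPM in the heterozygote, a log2 ratio of 1.43 (0.56 to 2.44). Atm was at 1.36 and Tex11 at 1.02. Of 27 pathway genes that passed there, 4 were 2-fold higher, these 3 among them, and 0 lower, against 2.62% higher and 0.638% lower. E6, the earliest of the 3 clusters, made up more of that pool in the knockout, as given above, and the part of this makeup was not tested.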

How the data were processed

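The authors deposited whole UMI counts for each gene and barcode, and the file headers name Cell Ranger 7.1.0 as their source. Seurat 4.1.0 and mm10 also stand in the submitters' processing notes. Whether intronic reads were counted is not given in the sources used here. Columns of other samples numbered 0. The 9 genes and all lists were chosen with earlier results of these data known.

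Cells needed 500 UMIs, 250 genes and at most 20% mitochondrial UMIs, which left 22503 knockout and 15038 heterozygous cells, and Scrublet doublets were removed. Both libraries were clustered together in scanpy 1.11.5 with 2000 variable genes, 30 principal components, 20 neighbours and Leiden resolution 1. The 9 genes and the pathway list were left out of the variable genes, and early clusters were clustered again. Names came from 16 marker sets by a scoring rule set after the data were seen, with a minimum score of 0.5 and a lead of 0.25, the lead not being asked where the next best set was the neighbouring stage, as in E5, E6 and cluster 8. The share of cells left unnamed was 10.9% in the knockout and 24.8% in the heterozygote.

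UMIs were summed per class and library. Named genes were the 9, pathway genes at 2-fold or among the 2 highest of their role in E5, and genes of like profile. Some pathway genes enter the counts but are not reported here by name. A 2-fold difference is a rule of size, and 0 counts had a floor of 3. Thinning to 1608 UMIs left out 11535 cells. On simulated counts of the early meiotic pool, 100% of 200 genes changed 4-fold were recovered among 4777 genes. All of the 200 had more UMIs than Prdm9, Spo11, Msh4, Msh5 and Mlh3. Only counting error was simulated, so smaller differences and variation between libraries were not covered. TMM factors came from edgeR 4.0.16. Positions are from GENCODE M21 on mm10.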

Additional observations from a re-analysis of the deposited data

Results flagged for a closer look

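The log2 ratio, knockout over heterozygote, had opposite signs in different stages for Rad51ap2 and Tex15, and the difference between stages was not tested. Rad51ap2 had 1.38 in diplotene-like cells, from 25 knockout and 12 heterozygous UMIs, and −0.45 in early meiotic cells, whose sign turned in 4 of 14 other settings, so no direction is drawn from it. Tex15 had 0.41 in elongating-spermatid-like cells, against −0.61 in pachytene-like cells, −0.52 in round-spermatid-like cells and −0.25 in E1 to E4 pooled. The makeup of E1 to E4 pooled differed between the libraries, as given above. TMM factors shift elongating ratios by −0.53, which turns the 0.41 below 0, and the pachytene value was 0.0581 with each library clustered on its own.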

How the results depend on the processing

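No paired analysis was possible because each genotype has 1 library. Meiob stayed below 0 and Spo11 above 0 in early meiotic cells in 14 of 14 other settings, at −1.11 to −0.51 and 0.46 to 1.08, and Spo11 in pachytene-like cells at 0.58 to 1.09. Msh5 (0.24 to 0.89), Prdm9 (0.11 to 1.09) and Tex15 (0.01 to 0.83) also stayed above 0 in early meiotic cells in all 14. The main counting intervals of Prdm9 and Tex15 there included 0. The pooled Rad51ap2 ratio turned to 0.40 with cells of at least 1000 UMIs, 0.27 with at most 10% mitochondrial UMIs, 0.034 at resolution 2 and 0.0282 with stages from marker shares. In pachytene-like cells Meiob turned to 0.0544 with marker shares and Tex15 to 0.0581 with each library clustered on its own. With the elongating level subtracted, pachytene values were −3.80 for Tex15, −1.999 for Msh4, −0.74 for Dmc1 and 5.25 for Prdm9. The causes were not tested.

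Counts over all genes moved more. The 100 genes 2-fold higher in early meiotic knockout cells became 54 with 1000 UMIs, 35 with 10% mitochondrial UMIs, 46 with all cells kept, 36 at resolution 2, 18 with marker shares and 19 at a 200 CPM minimum. The 33 lower became 15 with 10% mitochondrial UMIs, 18 with all cells kept, 17 at resolution 2, 16 with marker shares and 12 at 200 CPM. In pachytene-like cells the 28 higher became 47 after thinning, 57 with TMM factors, 88 at 10 CPM and 7 at 200 CPM. The 45 lower became 97 with 1000 UMIs, 76 with 10% mitochondrial UMIs, 20 with all cells kept, 115 at resolution 2, 15 with separate clustering, 140 with cells weighted equally, 139 after thinning, 240 at 10 CPM and 9 at 200 CPM.

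TMM factors shifted log2 ratios by 0.12 in pachytene-like and −0.53 in elongating-spermatid-like cells, and subtraction of the elongating level moved the median of all genes in early meiotic cells to −0.14. Equal weights for E5 to E9, scaling within each library and leaving out shared barcodes were chosen after seeing the data. Early clusters are small, and E6 held 27 heterozygous cells, so single-cluster values rest on few UMIs.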
